A study of Mus musculus with 12 samples.

Results

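The 10 genes of endoplasmic reticulum calcium cycling that were examined are the SERCA pumps Atp2a1, Atp2a2 and Atp2a3, the small pump inhibitors Sln and Pln, the ryanodine receptors Ryr1, Ryr2 and Ryr3, and the IP3 receptors Itpr1 and Itpr2. They were taken by symbol from the 23420 genes of the count table, and all 10 were found. The libraries were made from iWAT, the inguinal fat pad, of 12 male C57BL/6 mice aged 10 weeks, and each of the 4 groups held 3 mice. Every mouse carried loxP-flanked HIF2a alleles. The WT mice had no Cre, and the HIF2α AKO mice carried Adipoq-Cre, which is driven by an adipocyte promoter, so that deletion is directed to adipocytes and Cre and deletion always came together. TN mice of both genotypes were kept at 30 °C for 1 week and cold mice at 4 to 6 °C for 3 days.

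SERCA pumps use ATP to move calcium from the cytosol into the endoplasmic or sarcoplasmic reticulum, and ryanodine and IP3 receptors let it flow back. When both run at once, ATP is spent and heat is released without net calcium movement. In beige fat, this futile cycle has been described as a source of heat that does not need UCP1, with SERCA2 and RYR2 as its pump and channel, and in muscle it is promoted by sarcolipin, the product of Sln. Phospholamban, the product of Pln, restrains SERCA2 in the heart.

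Atp2a2 lies on the minus strand of chromosome 5 (GRCm38, chr5:122453513-122502225) and has a pair of coding transcripts in the GENCODE annotation, which share 2983 coding bases and end in different exons. One of them, Atp2a2-201, adds 152 coding bases of its own at chr5:122457151-122457302, and the other, Atp2a2-202, adds 14 at chr5:122454291-122454304. The longer end is that of the widely expressed SERCA2b and the shorter that of the SERCA2a of heart and slow muscle. The coding ends are shown because the deposited counts cover the whole gene, so that these forms could not be told apart. The last 30 shared bases are in lower case and the bases of each form in capitals.
Atp2a2-201: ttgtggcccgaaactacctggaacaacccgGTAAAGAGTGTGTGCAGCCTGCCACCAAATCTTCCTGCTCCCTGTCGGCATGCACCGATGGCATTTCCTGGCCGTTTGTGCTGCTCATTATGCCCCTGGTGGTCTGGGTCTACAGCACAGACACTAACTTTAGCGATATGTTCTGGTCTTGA
Atp2a2-202: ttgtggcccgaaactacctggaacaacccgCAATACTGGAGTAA

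The other members lie apart from each other on GRCm38, except for a pair on chromosome 7 and a pair on chromosome 6. Atp2a1 (chr7:126445858-126463108, minus strand) shares exon bases with Rabep2, as Pln does with Cep85l and Ryr3 with Aven, and Atp2a3 (chr11:72961169-72993044, plus strand) overlaps no other gene of the table. Sln lies at chr9:53850164-53854560 and Pln at chr10:53337667-53345987, both on the plus strand. Of the ryanodine receptors, Ryr1 spans chr7:29003344-29125179, Ryr2 chr13:11553102-12106945 and Ryr3 chr2:112631355-113217096, all on the minus strand. Itpr1 spans chr6:108213096-108551109 on the plus strand and Itpr2 chr6:146108299-146502223 on the minus strand. Shared exon bases matter because reads there could be assigned to either gene or left out as ambiguous.

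A library held from 22368316 to 35204631 counts on genes. Levels are given as CPM, the count relative to the size of the library after TMM scaling, and as CPM per kb of annotated exon where genes are compared with each other. Of the 15306 genes that passed the filter on low counts, 9 were members, and Sln did not pass. Epas1, which encodes HIF2α, showed no decrease in HIF2α AKO libraries, with means of 360 and 348 CPM in WT and HIF2α AKO at TN and of 627 and 826 CPM in cold. Counts over a whole gene need not show the loss of floxed exons, and genotypes are given as labelled. The thermogenic state of the pads was as labelled, since Ucp1, the uncoupling protein of brown and beige fat, lay between 0.204 and 3.85 CPM at TN and between 2171 and 5896 CPM in cold. Adipoq, the adipocyte hormone, lay between 899 and 2467 CPM in all libraries.

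A pair of libraries stood apart in skeletal muscle transcripts. The 14 genes of fast muscle fibres summed to 1755 CPM in TN HIF2α AKO 2 and to 1448 CPM in cold HIF2α AKO 1, against 41.2 and 73.3 CPM and 69.5 and 71.1 CPM in the other libraries of these groups. In WT, they summed to 85.7 to 123 CPM at TN and to 55.5 to 77.5 CPM in cold. Myh4, a fast myosin heavy chain, reached 536 and 405 CPM in this pair. Below them, it lay between 5.22 and 30.2 CPM in TN WT, at 3.12 and 6.47 CPM in the other TN HIF2α AKO libraries and between 0 and 1.65 CPM in the remaining cold libraries, so that fast fibre transcripts were also somewhat higher in TN WT than in cold WT. Myh7, the slow myosin heavy chain, stayed at or below 1.60 CPM in every library. In TN WT 3, 7 epithelial genes summed to 264 CPM, against 3.58 to 11.5 CPM elsewhere. Results that rest on these libraries are given with and without the muscle-rich pair. Leaving the pair out takes a library from each HIF2α AKO group of 3. For cold against TN, the share of all genes past an adjusted p of 0.05 then falls from 27.0% to 9.8% in HIF2α AKO. Over both genotypes, it falls from 48.8% to 38.5%. Cold HIF2α AKO 1 was also the library with the highest Ucp1, 5896 CPM, so that its removal takes away more than muscle transcripts.

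Ordered by level per kb, the pumps Atp2a3 and Atp2a2 came first, then the IP3 receptors and the muscle pump Atp2a1, then the inhibitor Pln and the ryanodine receptors. In TN WT, Atp2a3 stood at 63.8 ± 16.5 CPM per kb and Atp2a2 at 34.2 ± 1.21 (mean ± SD, n = 3, as for all group values below). Itpr1 followed at 6.12 ± 0.117 and Itpr2 at 4.98 ± 0.399 CPM per kb, then Atp2a1 at 3.52 ± 2.30, which overlapped Itpr2 within its spread. Pln at 0.318 ± 0.0608 and Ryr1 at 0.275 ± 0.124 CPM per kb could not be ordered beyond their spread. Ryr3 at 0.112 ± 0.0193 and Ryr2 at 0.0625 ± 0.0174 CPM per kb were lowest of those detected. In cold WT, the first places were exchanged, with Atp2a2 at 66.6 ± 9.53 and Atp2a3 at 48.1 ± 10.7 CPM per kb, and the receptors kept their order, although Ryr1 and Ryr3 then lay within each other's spread. RYR2, the channel named for the cycle in beige fat, thus had the lowest transcript level per kb of the members that passed the filter.

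**Figure D1:**
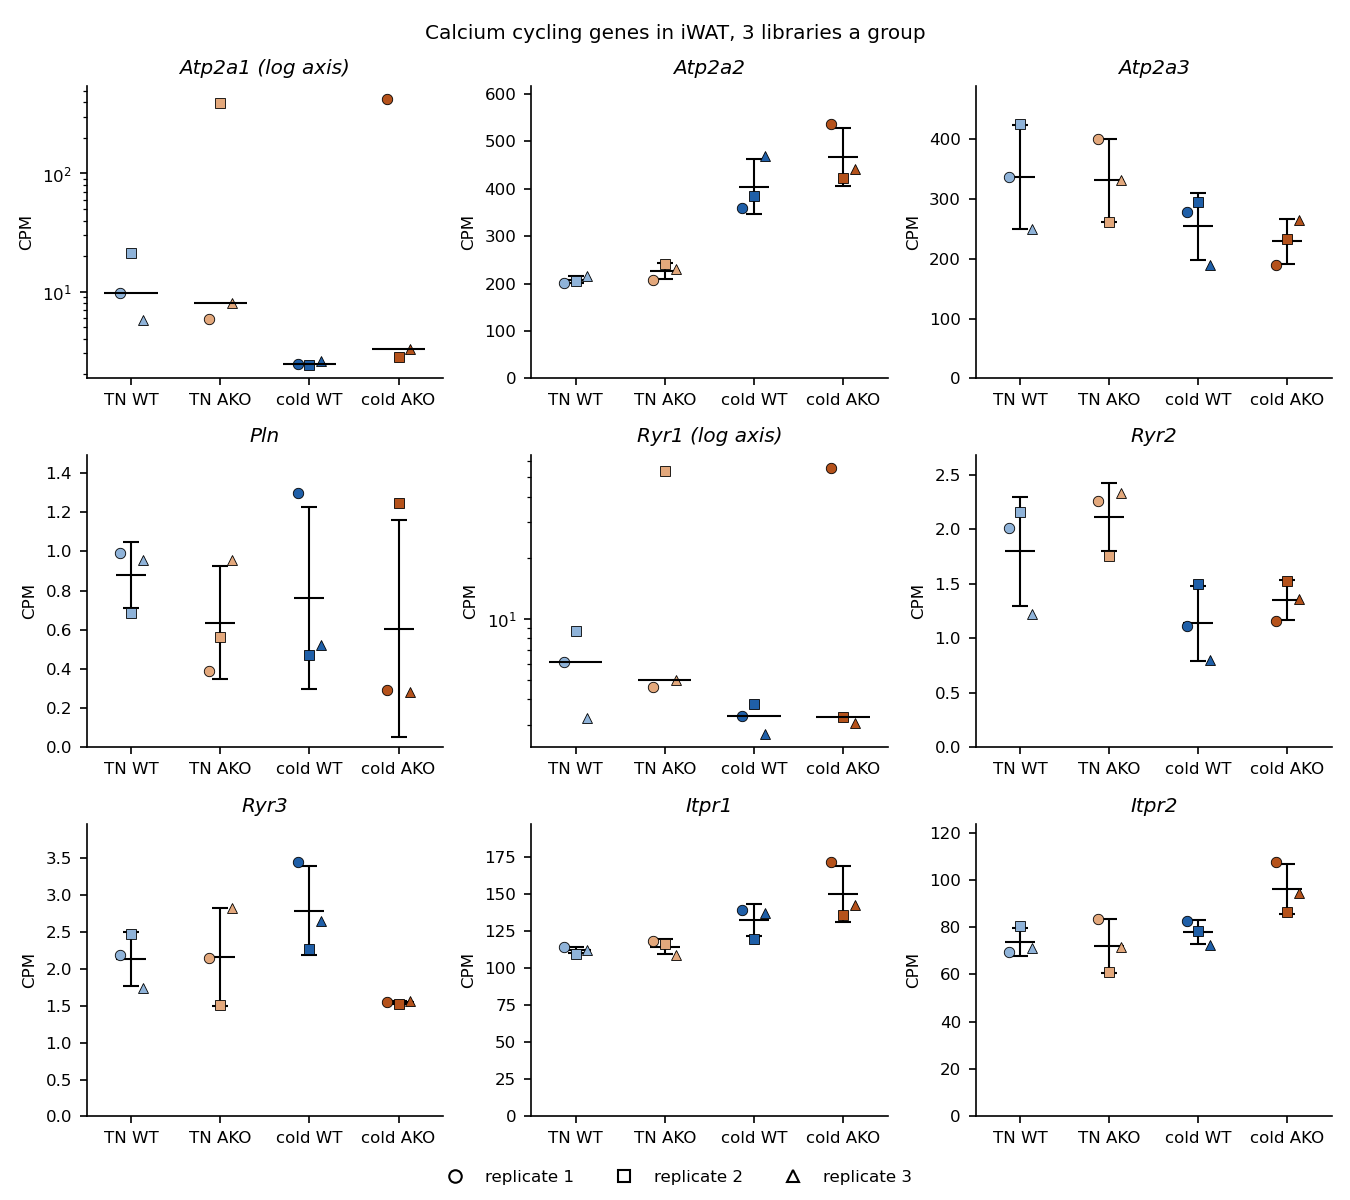
CPM of the 9 members that passed the filter on low counts, by group. Each symbol is 1 library and its shape the replicate number, the bars show mean ± SD except for Atp2a1 and Ryr1, where a log axis is used and the line is the median. Atp2a2 was higher in every cold library than in every TN library, and Atp2a1 and Ryr1 were far above the rest in TN HIF2α AKO 2 and cold HIF2α AKO 1.

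Cold exposure was compared with thermoneutrality within each genotype and over both genotypes, to learn which parts of the cycle follow the recruitment of beige fat. Atp2a2 rose about 2-fold in both genotypes and was the sole member that did so in every fit. In the test over both genotypes, Itpr1 and Itpr2 rose slightly and Atp2a3 and Ryr2 fell. Of these 4, the call of Itpr1 held under all alternatives run, and those of the other members were lost under some. TMM factors lay between 1.02 and 1.20 at TN and between 0.829 and 0.991 in cold, without overlap. All alternatives used TMM or DESeq2 size factors. A change as small as that of Itpr1 was thus not tested apart from such scaling.

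Atp2a2, the pump gene named for the cycle in beige fat, lay at 201, 206 and 216 CPM in TN WT and at 359, 386 and 470 CPM in cold WT. In HIF2α AKO, it lay at 208, 241 and 230 CPM at TN and at 536, 422 and 441 CPM in cold. The lowest cold library was thus well above the highest TN library in both genotypes. The log2 fold change was 0.96 in WT (SE 0.131, edgeR adjusted p = 0.00115) and 1.04 in HIF2α AKO (SE 0.131, edgeR adjusted p = 4.79e-04). Over both genotypes, it was 1.00 (SE 0.0929, edgeR adjusted p = 2.59e-05), a fold of 2.00 with a 95% interval of 0.80 to 1.21 on the log2 scale. Without the muscle-rich pair, Atp2a2 rose by 0.97 (edgeR adjusted p = 2.10e-04), and its log2 fold change stayed between 0.94 and 1.04 over all alternatives of the fit.

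In WT, Atp2a2 was the 1 of 9 members past the threshold of an adjusted p of 0.05, beside 21.3% of all genes tested, of which 15.6% were higher and 5.68% lower in cold. In HIF2α AKO, 3 of 9 members passed, all of them higher, beside 27.0% of all genes, with 15.6% higher and 11.5% lower. Over both genotypes, 5 of 9 members passed, 3 higher and 2 lower, beside 48.8% of all genes, with 24.8% higher and 24.0% lower. With 9 members, these shares are not far from those of all genes, and the counts show nothing particular to the members. Their median log2 fold change was -0.13 over both genotypes, and that of all genes was -0.05. In 2 members, Atp2a2 and Itpr1, all 6 cold libraries were higher than all 6 TN libraries, which was the case, in either direction, in 24.6% of all genes.

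Atp2a3, the pump gene known from lymphocytes, platelets and endothelium, moved the other way. It lay at 336, 425 and 250 CPM in TN WT and at 278, 295 and 190 CPM in cold WT. In HIF2α AKO, the values were 400, 261 and 332 CPM at TN and 190, 233 and 265 CPM in cold. The groups overlapped in both genotypes. The log2 fold change was -0.41 in WT (SE 0.235, edgeR adjusted p = 0.217) and -0.53 in HIF2α AKO (SE 0.235, edgeR adjusted p = 0.11), and over both genotypes it was -0.47 (SE 0.166, edgeR adjusted p = 0.0375). This last call was lost without the muscle-rich pair, at -0.48 (edgeR adjusted p = 0.0558), and when any 1 of 7 libraries was left out, with adjusted p between 0.0651 and 0.0918 without TN WT 1 or 2, TN HIF2α AKO 1 or 3, cold WT 3, or cold HIF2α AKO 1 or 2.

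Lymphocyte transcripts moved with Atp2a3. The 10 lymphocyte and blood genes summed to between 1571 and 2484 CPM at TN and between 872 and 1491 CPM in cold. The ranges were 1590 to 2484 CPM in TN WT, 1571 to 2409 in TN HIF2α AKO, 881 to 1491 in cold WT and 872 to 1300 in cold HIF2α AKO. Over both genotypes, 8 of the 10 were called lower in cold, beside 24.0% of all genes. Within a genotype, 1 was called lower in WT and 3 in HIF2α AKO, beside 5.68% and 11.5% of all genes. Ptprc, the pan-leukocyte antigen CD45, lay between 606 and 961 CPM at TN and between 325 and 601 CPM in cold, and Cd79a, a part of the B cell receptor, between 236 and 379 CPM and between 124 and 220 CPM. Per 1000 CPM of the lymphocyte list, Atp2a3 stood at 157 to 172 CPM at TN and at 181 to 218 CPM in cold, so that relative to these markers it was not lower in cold. In bulk tissue, fewer cells of a type and less RNA per cell cannot be told apart.

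The share of each pump in the summed pump transcripts therefore shifted. Per kb, Atp2a2 made up 28.1 to 42.0% of the SERCA sum in TN WT and 52.5 to 67.8% in cold WT. The ratio of Atp2a2 to Atp2a3 in CPM lay between 0.485 and 0.921 in the TN libraries and between 1.29 and 2.83 in the cold libraries, without overlap. The sum itself moved less, from 84.5 to 120 CPM per kb in TN WT to 112 to 120 in cold WT. In TN HIF2α AKO 2 and cold HIF2α AKO 1, the sum reached 203 and 246 CPM per kb, of which Atp2a1 made up 56.0 and 49.6%.

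**Figure D2:**
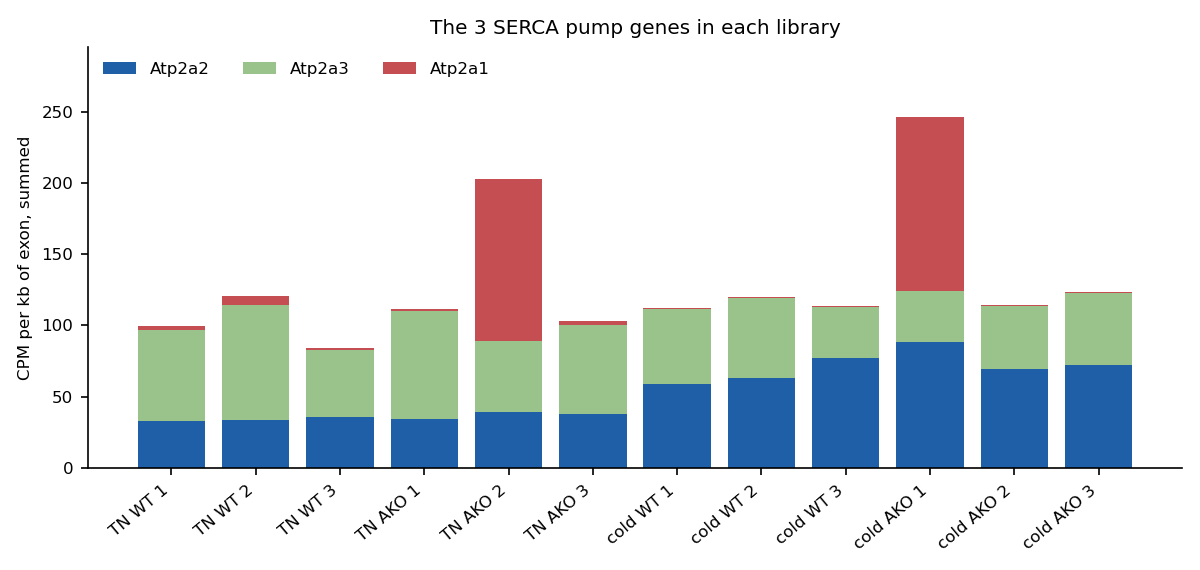
The 3 SERCA genes in each library as stacked bars of CPM per kb of exon. The Atp2a2 part is larger in the cold libraries, the Atp2a3 part is smaller in most of them, and Atp2a1 is sizeable in TN HIF2α AKO 2 and cold HIF2α AKO 1.

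Atp2a1, the pump of fast skeletal muscle, was far higher in the 2 libraries with the most fast fibre transcripts than in the others. It lay at 9.75, 21.2 and 5.80 CPM in TN WT and at 2.46, 2.39 and 2.61 CPM in cold WT. In HIF2α AKO, it lay at 5.92, 395 and 7.95 CPM at TN and at 424, 2.81 and 3.24 CPM in cold. The 2 very high values were those of the muscle-rich pair, and in WT all cold libraries were lower than all TN libraries. The log2 fold change in WT was -2.29 (SE 2.00, edgeR adjusted p = 0.405) in the model of all libraries, where the muscle-rich pair widened the spread. Without that pair, it was -2.29 (SE 0.421, edgeR adjusted p = 0.00746), so that Atp2a1 was then called lower in cold WT. Over both genotypes, it was -1.11 (edgeR adjusted p = 0.497) with the pair and -1.74 (edgeR adjusted p = 0.00464) without it.

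Most fast fibre genes moved in the same direction in these libraries. Without the muscle-rich pair, 9 of the 14 were called lower in cold WT and 0 were called higher, beside 19.5% of all genes called. The median of the 14 was -1.86 on the log2 scale. Myl1 went the other way, by 0.57, and was not called. Per 1000 CPM of the fast fibre list, Atp2a1 stood at 67.6 to 172 CPM in TN WT, at 33.7 to 44.4 CPM in cold WT and at 225 and 293 CPM in the muscle-rich pair. Much of the list's sum outside the pair came from Myl1, at 14.7 to 62.1 CPM. The 3 genes most like Atp2a1 over the 12 libraries were Tnnt3 (Pearson's r of log2 CPM = 0.995), Tnni2 and Actn3, all components of the fast fibre contractile apparatus. Whether the difference between TN WT and cold WT came from muscle left on the pad was not tested.

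**Figure D3:**
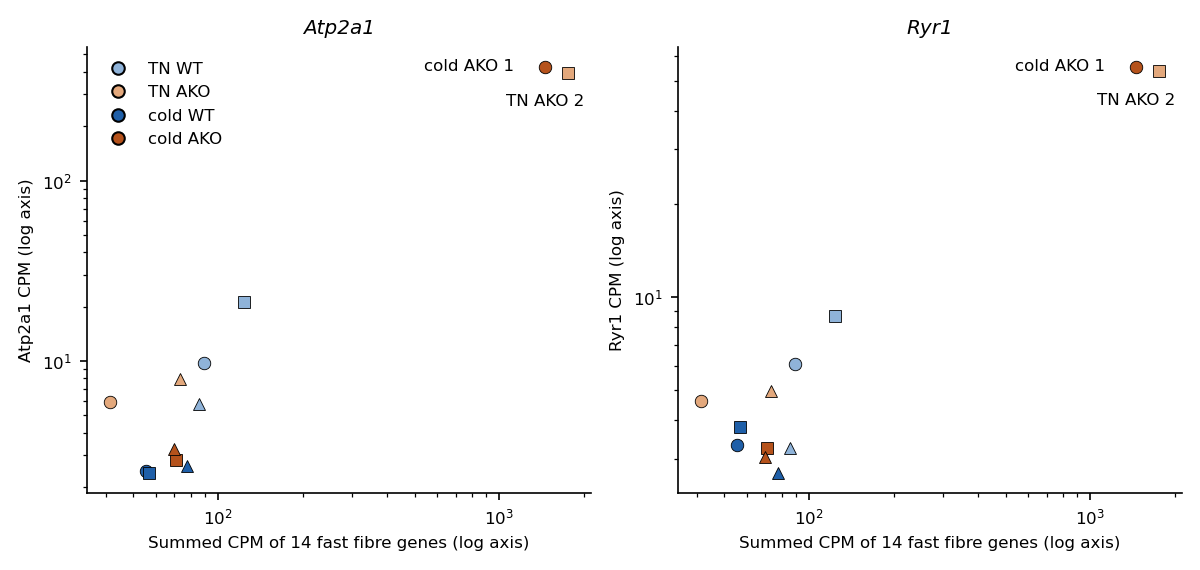
Atp2a1 and Ryr1 CPM against the summed CPM of 14 fast fibre genes, with 1 point per library on log axes. Symbols stand for replicates 1 (circle), 2 (square) and 3 (triangle) and colours for groups. The 2 libraries with the highest fast fibre sums have by far the highest levels of both genes.

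The inhibitors were scarce. Sln had 2 counts in cold HIF2α AKO 1 and 0 in the other 11 libraries, each of which allows up to 3 counts. It was at 0 in TN HIF2α AKO 2 as well, the library with the highest fast fibre sum. Pln had between 6 and 39 counts per library, or 0.280 to 1.30 CPM, and its groups overlapped in every comparison. Its log2 fold change over both genotypes was -0.13 with a 95% interval from -1.06 to 0.79, so that changes within these bounds remain compatible with the counts. The exons of Pln overlap those of Cep85l, and the strand setting of the counting is not given in the sources used here. Of the other small membrane proteins that bind SERCA, myoregulin (2310015B20Rik in the table) stayed at or below 0.220 CPM, and 1810037I17Rik, the gene of another-regulin, chosen here after its values were seen, had a mean of 23.8 CPM and a log2 fold change of 0.09 (edgeR adjusted p = 0.645).

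Among the 5 channel genes of the set, Itpr1 and Itpr2 made up most of the transcripts. Itpr3, which is not among the 5, lay between 94.5 and 217 CPM. Per kb, they made up 95.0 to 98.1% of the summed transcripts of these 5, and 80.2 and 86.2% in the muscle-rich pair, where Ryr1 took 18.8 and 13.1%. Itpr1, an IP3 receptor opened downstream of phospholipase C, lay at 114, 110 and 112 CPM in TN WT and at 139, 120 and 138 CPM in cold WT. In HIF2α AKO, it lay at 118, 117 and 109 CPM at TN and at 171, 136 and 143 CPM in cold. After TMM scaling, every cold library was higher than every TN library, although by little in cold WT 2. The log2 fold change was 0.24 in WT (SE 0.101, edgeR adjusted p = 0.107), 0.39 in HIF2α AKO (SE 0.101, edgeR adjusted p = 0.019) and 0.31 over both (SE 0.0716, edgeR adjusted p = 0.00534). Without the muscle-rich pair, the call in HIF2α AKO was lost (0.29, edgeR adjusted p = 0.112) and that over both genotypes was kept (0.27, edgeR adjusted p = 0.0186). In that fit, 9.8% of all genes were called in HIF2α AKO, against 27.0% with the pair. The call in HIF2α AKO was also lost without TN HIF2α AKO 1, TN HIF2α AKO 3 or cold HIF2α AKO 1, with adjusted p of 0.0526, 0.0679 and 0.0813.

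Itpr2, the other IP3 receptor of the set, lay at 69.4, 80.5 and 71.4 CPM in TN WT and at 82.7, 78.2 and 72.6 CPM in cold WT, which overlapped. In HIF2α AKO, it lay at 83.6, 61.0 and 71.5 CPM at TN and at 107, 86.4 and 94.4 CPM in cold, without overlap. The log2 fold change was 0.08 in WT (SE 0.125, edgeR adjusted p = 0.665), 0.42 in HIF2α AKO (SE 0.125, edgeR adjusted p = 0.0329) and 0.25 over both (SE 0.0884, edgeR adjusted p = 0.0389). The calls did not hold without the muscle-rich pair, at 0.22 in HIF2α AKO (edgeR adjusted p = 0.241) and 0.15 over both genotypes (edgeR adjusted p = 0.159). That fit also called fewer of all genes, 9.8% against 27.0% in HIF2α AKO and 38.5% against 48.8% over both genotypes. The call in HIF2α AKO was also lost without TN HIF2α AKO 2 or 3 or cold HIF2α AKO 1 or 3, with adjusted p between 0.0568 and 0.133. The call over both genotypes was lost without any 1 of 8 libraries, namely TN WT 1 or 3, TN HIF2α AKO 2 or 3, cold WT 1 or 2, and cold HIF2α AKO 1 or 3, with adjusted p between 0.0558 and 0.0931.

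Ryr2, the cardiac ryanodine receptor, was low, with 20 to 79 counts per library. It lay at 2.01, 2.16 and 1.23 CPM in TN WT and at 1.12, 1.50 and 0.804 CPM in cold WT, which overlapped. In HIF2α AKO, it lay at 2.26, 1.76 and 2.33 CPM at TN and at 1.16, 1.53 and 1.36 CPM in cold, where every cold library was lower. The log2 fold change was -0.66 in WT (SE 0.289, edgeR adjusted p = 0.116), -0.64 in HIF2α AKO (SE 0.286, edgeR adjusted p = 0.111) and -0.65 over both (SE 0.203, edgeR adjusted p = 0.0221). It was -0.66 over both genotypes without the muscle-rich pair (edgeR adjusted p = 0.0512), and the adjusted p lay between 0.0505 and 0.0547 without TN WT 1 or 2, TN HIF2α AKO 3, cold WT 3 or cold HIF2α AKO 1. Over both genotypes, Ryr2 thus fell where Atp2a2 rose, but the call of Ryr2 did not hold in these fits. Over the 12 libraries, Ryr2 went with Atp2a3 (r = 0.85, and 0.88 after the group means were subtracted). Which cells of the pad held the Ryr2 transcripts was not tested.

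Ryr1, the ryanodine receptor of skeletal muscle, lay at 53.6 CPM in TN HIF2α AKO 2 and at 55.3 CPM in cold HIF2α AKO 1, against 2.69 to 8.67 CPM in all other libraries. Its log2 fold change was -0.88 in WT (edgeR adjusted p = 0.605), -0.05 in HIF2α AKO and -0.46 over both genotypes (edgeR adjusted p = 0.656), and without the muscle-rich pair it was -0.74 over both (edgeR adjusted p = 0.0449). Its levels were most like those of Tnni2 (r = 0.989), Atp2a1 and Myoz1. Ryr3, the third ryanodine receptor, had log2 fold changes of 0.38 in WT (edgeR adjusted p = 0.277) and -0.48 in HIF2α AKO (edgeR adjusted p = 0.185), and neither passed.

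**Figure D4:**
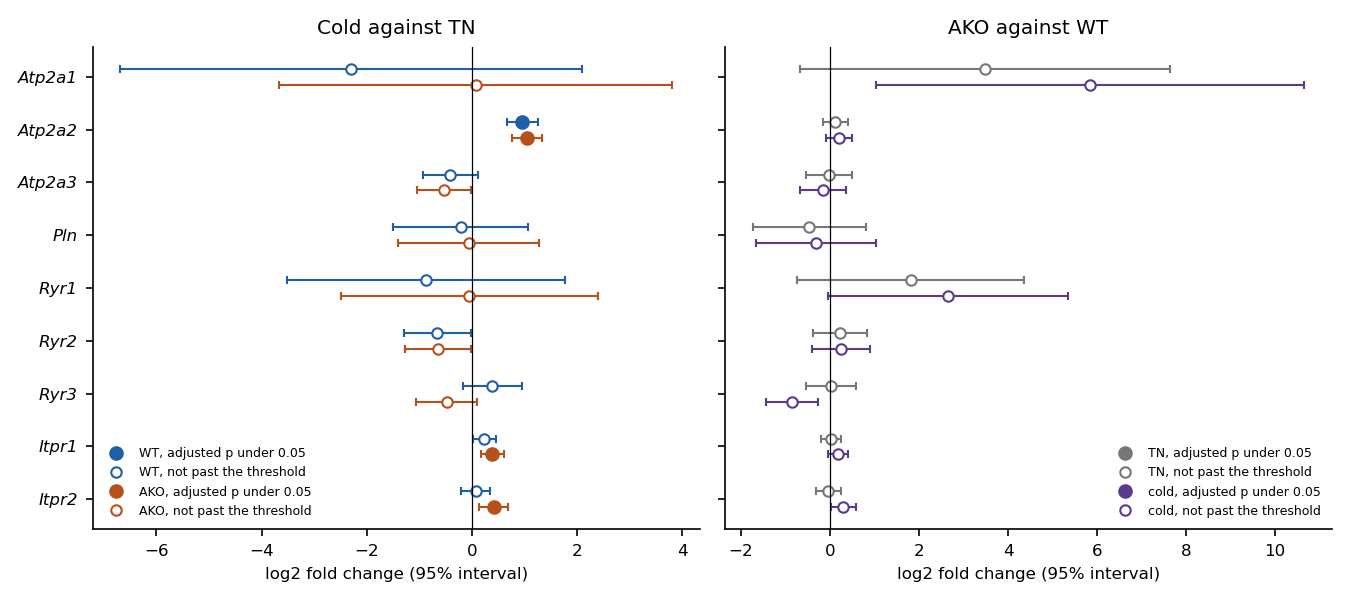
Log2 fold changes of the 9 members with 95% intervals, for cold against TN in each genotype and for HIF2α AKO against WT at each temperature. Filled points passed an adjusted p of 0.05. The wide intervals of Atp2a1 and Ryr1 go with the muscle-rich libraries, Atp2a2 lies near 1 in both genotypes, and no member passed for genotype.

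HIF2α AKO mice were compared with WT mice at each temperature, to learn whether the members depend on the genotype. At TN, 0 of 9 members passed, beside 0.00653% of all genes, which was the single gene Zfp949, named after its values were seen. In cold, 0 of 9 passed, again beside 0.00653%, and Zfp949 was again that gene. Atp2a2 differed between the genotypes by 0.12 at TN (95% interval -0.16 to 0.41) and by 0.21 in cold (-0.08 to 0.49) on the log2 scale. The upper bounds of these intervals lie below its rise of 0.96 in cold WT. Without the muscle-rich pair, the difference in cold was 0.09. DESeq2 and voom called 0 members in either comparison as well.

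At an unadjusted p under 0.05, edgeR called 0 of 9 members at TN, beside 2.91% of all genes, and 3 of 9 in cold, beside 2.95%. Atp2a1 was 5.84 higher in cold HIF2α AKO (edgeR adjusted p = 1), which rested on 1 library, since without the muscle-rich pair the difference was 0.28. Itpr2 was 0.30 higher (edgeR adjusted p = 1) and 0.22 higher without that pair. In Atp2a1, Itpr2 and Ryr3, the 3 cold HIF2α AKO libraries did not overlap the 3 cold WT libraries, which was so in 7.53% of all genes.

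Ryr3, a ryanodine receptor found in many tissues at low levels, lay at 3.45, 2.26 and 2.65 CPM in cold WT and at 1.55, 1.53 and 1.56 CPM in cold HIF2α AKO. At TN, it lay at 2.19, 2.47 and 1.74 CPM in WT and at 2.14, 1.51 and 2.83 CPM in HIF2α AKO, which overlapped. The 3 cold HIF2α AKO values were close to each other and below all cold WT values. The log2 difference in cold was -0.85 (SE 0.263, edgeR adjusted p = 1), and it was -0.85 without the muscle-rich pair too. These levels rest on 32 to 86 counts per library, and the exons of Ryr3 overlap those of Aven.

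Whether the response to cold differed between the genotypes was tested with the interaction of genotype and temperature. It was called in 0 of 9 members, beside 0.0% of all genes tested. For Atp2a2, the response was 0.08 larger in HIF2α AKO on the log2 scale (95% interval -0.32 to 0.49). That of Itpr2 was 0.34 larger (95% interval -0.05 to 0.73), with 0.14 without the muscle-rich pair. At an unadjusted p under 0.05, edgeR called 1 of 9 members, Ryr3, beside 2.14% of all genes.

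The levels of the members were also compared with those of all well-measured genes over the 12 libraries. Among 13148 genes, those most like Atp2a2 were Mrpl15, a protein of the mitochondrial ribosome (Pearson's r of log2 CPM = 0.996, and 0.944 after the group means were subtracted), Afg3l2, a protease of the inner mitochondrial membrane, and Slc25a51, the mitochondrial NAD carrier. For Atp2a3, they were Elmo1 (r = 0.99), Csk and Cyfip2, all known from leukocyte signalling. Itpr1 was most like Gmpr (r = 0.956), Peo1, the mitochondrial DNA helicase, and Sik3. Itpr2 was most like Fbxl6 (r = 0.933) and Fam83g, and Ryr2 most like Pglyrp1 (r = 0.94), Add3 and Wasf3. For the low genes the likeness was weaker, with Tmub2 (r = 0.803), Glycam1 and Slc17a5 nearest to Ryr3 and Zranb1 (r = 0.838), Enpp3 and Fam20a nearest to Pln. These values describe libraries that share the groups and are given without a test. Within the members, r between Atp2a2 and Atp2a3 was -0.78, and between Atp2a3 and Ryr2 it was 0.85.

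The other calcium genes were counted by compartment as genes past the threshold, and the lists were not tested against each other. Among 12 genes of mitochondrial calcium uptake and release, 10 rose and 1 fell over both genotypes, beside 24.8% and 24.0% of all genes, their median log2 fold change being 0.81. With the muscle-rich pair left out, 9 rose and 1 fell, beside 38.5% of all genes called in either direction. Letm1, a cation exchanger of the inner membrane, rose by 2.17 (SE 0.162, edgeR adjusted p = 1.1e-05), from 70.1 to 110 CPM at TN to 318 to 581 CPM in cold. Ghitm, also known as Tmbim5, rose by 1.51, Ccdc90a, the regulator MCUR1, by 1.20, and Vdac1, a channel of the outer membrane, by 1.00 (edgeR adjusted p of 8.51e-05, 2.31e-04 and 6.19e-04). The uniporter itself, Mcu, rose by only 0.29 (edgeR adjusted p = 0.00618), whereas 1500032L24Rik, its small subunit EMRE, rose by 0.94 (edgeR adjusted p = 1.36e-04). Slc24a6, the mitochondrial sodium-calcium exchanger NCLX, fell by 0.35 (edgeR adjusted p = 0.0159). In WT, 7 of these 12 rose and 0 fell, beside 21.3% of all genes called, and in HIF2α AKO, 9 rose and 1 fell, beside 27.0%.

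Other endoplasmic reticulum calcium genes changed in both directions. Of 20 tested, 2 rose and 4 fell over both genotypes, beside 48.8% of all genes called, with a median of -0.10, and these counts were 2 and 4 without the muscle-rich pair as well. Srl, a calcium-binding protein of the sarcoplasmic reticulum, rose by 1.78 (edgeR adjusted p = 0.00242) and reached 17.9 to 52.5 CPM in cold, with its highest TN value, 20.8 CPM, in TN HIF2α AKO 2. Tmem38b, a counter-ion channel that supports calcium release, rose by 0.95 (edgeR adjusted p = 2.27e-04). Itpr3, the third IP3 receptor, fell by 0.53 (edgeR adjusted p = 0.0169), and Itprip, Pdia4 and Jph3 fell too, the last at a mean of only 0.338 CPM. The luminal chaperones Calr (-0.15), Canx (-0.03) and Hspa5 (0.15) did not pass. In WT, 2 rose and 0 fell, and in HIF2α AKO, 2 rose and 1 fell, beside 21.3% and 27.0% of all genes called.

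Of 17 genes of store-operated entry and plasma membrane calcium transport, 4 rose and 5 fell over both genotypes, with a median of 0.02, a share near the 48.8% of all genes. Stim1, the sensor of the store's filling, rose by 0.51 (edgeR adjusted p = 6.33e-04), from 83.2 to 110 CPM at TN to 119 to 158 CPM in cold, and rose in each genotype. Trpc1, Tmem66 (SARAF) and Orai3 rose by 0.53, 0.24 and 0.18. Slc8a1, the sodium-calcium exchanger, fell by 0.61, Orai2 by 0.57, Trpv2 by 0.54, Cacna1c by 0.37 and Atp2b1, a plasma membrane calcium pump, by 0.26. Without the muscle-rich pair, 1 of the 17 rose and 3 fell, beside 38.5% of all genes called. In WT, 1 rose and 0 fell, and in HIF2α AKO, 1 rose and 1 fell, beside 21.3% and 27.0% of all genes called. In the genotype comparisons, edgeR called 0 of the 49 genes of these 3 lists, and at an unadjusted p under 0.05 it called 0 at TN and 1 in cold, beside 2.91% and 2.95% of all genes. The 1 gene was Stac3, a gene of skeletal muscle excitation, 0.77 higher in HIF2α AKO and 0.37 higher without the muscle-rich pair. It lay at 4.70 CPM in cold HIF2α AKO 1 and at 2.53 and 2.24 CPM in the other cold HIF2α AKO libraries.

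**Figure D5:**
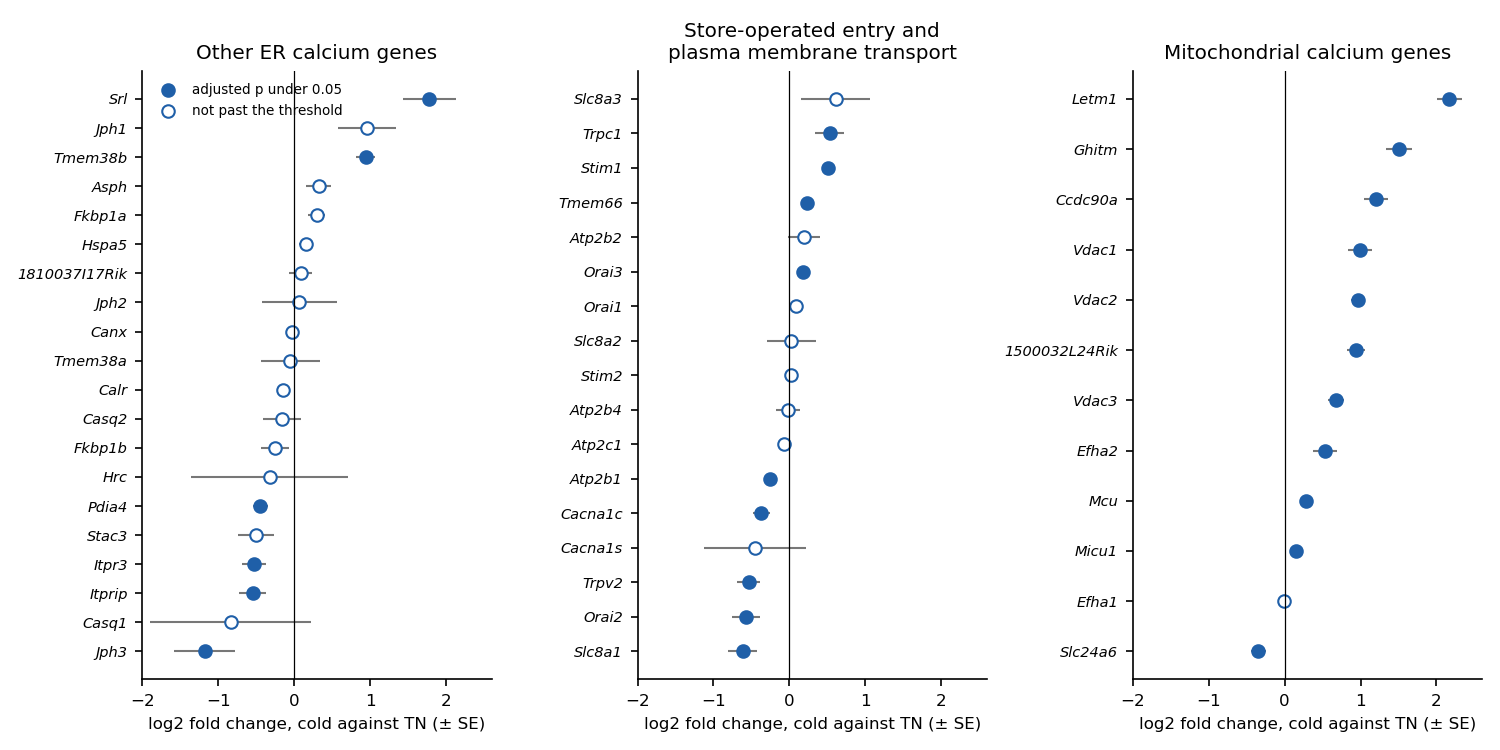
Log2 fold changes of cold against TN over both genotypes (± SE) for the 3 lists of other calcium genes. Filled points passed an adjusted p of 0.05. The mitochondrial genes lie mostly to the right, and the other lists spread to both sides of 0.

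The promoters of Itpr2 and Ryr2 are shown because both genes passed over both genotypes in opposite directions and both hold the core of the binding motif of HIF factors, ACGTG or GCGTG. They were thus chosen for holding it, and both calls were lost without the muscle-rich pair. Atp2a3, which also passed over both genotypes, holds neither core. RefSeq's table gave a promoter for 6 of the 10 members, namely Atp2a1, Atp2a3, Itpr2, Pln, Ryr1 and Ryr2. In the 250 bases before the start, both strands were searched. ACGTG was found in Pln and Ryr2 and in 16.6% of 32851 promoters, and GCGTG was found in Itpr2, at 3 places, and in Ryr2, and in 28.2% of promoters. A match of this length is a description and says nothing on binding. The sequences are those of RefSeq on GRCm38.p6, read 5′ to 3′ on the minus strand on which both genes lie, with the motifs in capitals (as ACGTG or GCGTG, or as CACGT or CACGC where they lie on the other strand). They span chr6:146502224-146502473 for Itpr2 and chr13:12106946-12107195 for Ryr2.
Itpr2: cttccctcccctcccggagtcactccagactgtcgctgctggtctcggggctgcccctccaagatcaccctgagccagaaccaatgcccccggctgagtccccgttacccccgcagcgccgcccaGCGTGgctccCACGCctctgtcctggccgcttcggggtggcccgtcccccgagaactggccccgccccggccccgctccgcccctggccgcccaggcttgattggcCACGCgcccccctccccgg
Ryr2: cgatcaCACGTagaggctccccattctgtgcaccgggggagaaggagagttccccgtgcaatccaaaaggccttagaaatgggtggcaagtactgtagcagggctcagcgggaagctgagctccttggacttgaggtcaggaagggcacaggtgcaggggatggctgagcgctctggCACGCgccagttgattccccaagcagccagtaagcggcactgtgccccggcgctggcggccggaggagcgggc

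The remaining marker lists are given as counts past the threshold in cold against TN over both genotypes, since cells other than adipocytes also hold calcium cycling genes. Among all genes tested, 24.8% were called higher and 24.0% lower in this comparison. All 8 thermogenic adipocyte genes rose. Of the white adipocyte genes, 3 of 6 rose, of the endothelial 3 of 7, of the smooth muscle and pericyte genes 2 of 10, and of the neuron and Schwann cell genes 2 of 7, with 0 falling in each of these lists. Of the macrophage genes, 2 of 7 fell, of the epithelial 1 of 7, of the slow fibre genes 1 of 6 rose and 1 fell, and of the fast fibre genes edgeR called 0 of 14, also at an unadjusted p under 0.05. When the muscle-rich pair was left out, 9 of the 14 fast fibre genes fell over both genotypes, with a median of -1.18, beside 38.5% of all genes called. Between genotypes, edgeR called 0 of the 82 genes of the marker lists at either temperature, and at an unadjusted p under 0.05 it called 10 at TN and 12 in cold, beside 2.91% and 2.95% of all genes. Of the 10 at TN, 6 were epithelial genes, the transcripts that were high in TN WT 3, and of the 12 in cold, 10 were fast fibre genes, those of the muscle-rich pair.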

How the data were processed

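The authors trimmed the reads with Trim Galore 0.4.4, aligned them to GRCm38 (mm10) with STAR 2.6.1d and deposited whole read counts per gene from HTSeq 0.13.5, without normalization. The annotation, strand setting and read length are not given in the sources used here. The tables of the 12 samples and that of the whole series gave identical counts, and the 5 tallies of reads outside genes (21.9 to 27.0% of reads) were left out. Counts were analysed with R 4.3.3 and edgeR 4.0.16. Genes were kept by filterByExpr (minimum count 10, minimum total 15), and TMM normalization and 1 quasi-likelihood model of 4 groups were used, with Benjamini-Hochberg adjustment over 15306 genes and a threshold of 0.05. The standard error is the absolute log2 fold change divided by the root of F. The processing was tested on simulated data, for cold against TN in WT. There, 5 of 103 edgeR calls and 38 of 160 DESeq2 calls were false. Of 67 changes of 0.5 on the log2 scale, edgeR recovered 9 and DESeq2 18, and of 67 changes of 1, they recovered 33 and 45. Only these genes and 66 more with changes of 2 were altered among 15306, far fewer than the 21.3% called in cold WT. No muscle-rich library was simulated. The shares of false and recovered calls therefore need not hold for these data. DESeq2 1.42.0 and limma 3.58.1 (voom) served as alternatives, and DESeq2 1.30.0 was the study's own tool.

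All members were named, and from 3 lists of other calcium genes and 10 marker lists up to 4 genes per direction that passed a comparison, or where none passed the 2 with the highest mean. Beyond this rule, Mcu, 1500032L24Rik, Atp2b1, Canx, Stac3, Myh7, Myl1 and 2310015B20Rik were chosen after their values were seen, as were those marked so in the text. The 3 genes most like each member were named by Pearson's r of log2 CPM over the 12 libraries, among genes with a mean count of at least 50, and 1 of them is not reported here. Members and lists were chosen with earlier results of these data known. Of the listed symbols, 142 were in the table, 9 were matched through RefSeq synonyms and 3 were not matched. Exon lengths and positions came from GENCODE M21. Groups follow the labels. The labels do not say whether a number pairs mice across groups, and the main model did not pair them. Of 18 pairs of same-numbered libraries, 5 had correlated deviations above 0.1 (range -0.43 to 0.39), which cannot settle the question. P-values set each difference against the spread between these libraries, which the model estimates over all 4 groups. At these depths a count of 0 allows up to 3 counts, which covers counting error only.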

Additional observations from a re-analysis of the deposited data

Results flagged for a closer look

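The difference between the genotypes in the response of Ryr3 to cold stood out by the test of the difference itself. Its log2 fold change of cold against TN was 0.38 in WT and -0.48 in HIF2α AKO, a difference of -0.86 (95% interval -1.67 to -0.06, edgeR adjusted p = 1), which passed an unadjusted threshold of 0.05 but not the adjusted one. The difference kept its sign over all alternatives, between -1.07 and -0.62, and the lowest adjusted p among them was 0.899. The opposite direction was shown by group means rather than by all libraries, since TN and cold libraries overlapped within each genotype. Groups of 3 libraries were not searched for single outlying values.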

How the results depend on the processing

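Atp2a2 kept its rise in cold in each genotype and over both under all alternatives run, and 0 members were called for genotype or for the interaction at an adjusted p under 0.05 under any of them. The number of members called in cold against TN moved elsewhere. In WT, it was 1 and became 2 with voom, with DESeq2 or edgeR on these groups alone and without the muscle-rich pair, with 1 to 2 when single libraries were left out (2 without TN WT 3). In HIF2α AKO, it was 3 and became 5 with voom, and 1 without the muscle-rich pair, beside 9.8% of all genes called. With single libraries left out, it was 1 to 3 (1 without TN HIF2α AKO 3 or cold HIF2α AKO 1). Over both genotypes, it was 5, and 2 to 4 with single libraries left out, with 2 without TN WT 1 or TN HIF2α AKO 3 and 3 without TN WT 2, cold WT 3 or cold HIF2α AKO 1. Without the muscle-rich pair, 2 members were called higher over both genotypes, Atp2a2 and Itpr1, and 2 lower, Atp2a1 and Ryr1. The calls of Atp2a3, Ryr2 and Itpr2 were lost in that fit. The threshold in the study's methods is an unadjusted p under 0.15 with an absolute log2 fold change above 0.2. The study used it with DESeq2 and gives it for genotype in cold. Applied here to edgeR's p, the counts were 4 in WT, 6 in HIF2α AKO, 2 for genotype at TN, 5 for genotype in cold and 2 for the interaction. The shares of all genes were 52.5, 54.6, 8.63, 8.98 and 8.81%. The 2 at TN were Atp2a1 and Ryr1, which were also among the 5 in cold, and without the muscle-rich pair these counts were 1 and 2. With the replicate block, the counts were 1, 3 and 4 in WT, HIF2α AKO and over both, and 0 in the other comparisons, and the call of Atp2a3 over both was lost (edgeR adjusted p = 0.0565). Without a filter, Itpr2 was no longer called over both genotypes (edgeR adjusted p = 0.0615), nor in HIF2α AKO in edgeR on these groups alone (edgeR adjusted p = 0.0586). Fits on the groups compared alone could not be run for the last 2 kinds of comparison, over both genotypes and the interaction, which use all groups.

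Of the single values stated above, those of 5 results changed sign, all of them uncalled. Ryr1 in HIF2α AKO was -0.05 and became 0.0023 without a filter, 0.0030 and 0.0056 with DESeq2 on all libraries and on these groups alone, and 0.0042 with the muscle level as a covariate, with a range of -2.74 to 2.09 when single libraries were left out. Over both genotypes, these ranges were -3.89 to 1.04 for Atp2a1, where it was called lower without cold HIF2α AKO 1 (edgeR adjusted p = 0.0234), -1.81 to 0.61 for Ryr1 and -0.68 to 0.068 for Pln, and for the interaction of Atp2a2 the range was -0.031 to 0.20. Ryr2 was called lower in WT with voom (-0.66, adjusted p = 0.0481) and without TN WT 3 (-0.87, edgeR adjusted p = 0.0455), and Atp2a3 was called lower in HIF2α AKO with voom (adjusted p = 0.0289) and with DESeq2 on these groups alone (adjusted p = 0.035). The causes were not tested. Of 23 uncalled changes of members that are not stated, and of which only a part is drawn, 18 changed sign under at least 1 alternative, and 0 passed under any. DESeq2's size factors in edgeR moved no median of all genes by over 0.1 and changed 0 counts of members. The alternative without the muscle-rich pair for the gene lists was chosen after seeing the data. With 3 libraries a group, changes as small as those of Itpr1 and Itpr2 lie near the limit of what could be called, and for Ryr2, Ryr3 and Pln the low counts limit it further.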
